A study of Homo sapiens with 24 samples.

Results

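The genes described here control the passage of cells from G1 into S phase. They were 10 of the 29794 genes in the exon count tables, chosen by name. They comprise the 3 CIP/KIP inhibitors of cyclin-dependent kinases (CDKN1A, CDKN1B and CDKN1C), the 3 members of the RB family (RB1, RBL1 and RBL2), the 3 D-type cyclins (CCND1, CCND2 and CCND3) and the E-type cyclin CCNE2. All 10 passed the filter on low counts in both batches. RNA-seq of polyadenylated RNA was performed in Flp-In T-REx 293 cells, a derivative of the human embryonic kidney line HEK293. The cells carried a lentiviral cassette in which doxycycline switches on GFP from a CMV promoter, with an artificial microRNA (miRNA) hairpin placed in an intron, and control cells carried the same vector without a hairpin (empty vector). In batch 1 there were 2 libraries per group, from cells with the empty vector and cells expressing miR-1 or miR-122. In batch 2 there were 3 libraries per group, from cells with the empty vector and cells expressing miR-155, miR-133a or a miRNA of the family of miR-302a, miR-373 and miR-372. All 24 libraries, controls included, came from cells kept for 6 days in geneticin (1 mg/mL, selection) and for 7 days in doxycycline (1 µg/mL), and replicates were transduced and maintained separately.

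D-type cyclins activate CDK4 and CDK6, and cyclin E activates CDK2. These kinases phosphorylate RB1 (pRB), RBL1 (p107) and RBL2 (p130), the pocket proteins that hold E2F transcription factors in check until S phase. CIP/KIP proteins bind cyclin and kinase complexes, and CDKN1A (p21) is a classical target of p53. A miRNA directs Argonaute to mRNAs that pair with its seed, the bases near its 5′ end, and lowers their stability and translation. miR-302a, miR-372 and miR-373 belong to a family of embryonic stem cell miRNAs known for promoting the transition from G1 to S phase, and CDKN1A, RBL1, RBL2 and D-type cyclins have been described as targets of their seed. HEK293 cells express early adenoviral proteins that bind pocket proteins and p53, which limits the line as a model of this checkpoint.

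The mature miRNAs are shown because their seeds define both the groups and the sites searched below. Sequences are from RefSeq (GRCh38.p14), matched by name for all 7 miRNAs, and capitals mark the seed, bases 2 to 8.
miR-302a: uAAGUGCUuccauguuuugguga
miR-372: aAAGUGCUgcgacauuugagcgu
miR-373: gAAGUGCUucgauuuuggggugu
miR-1: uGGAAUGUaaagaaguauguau
miR-122: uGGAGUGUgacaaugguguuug
miR-133a: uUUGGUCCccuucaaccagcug
miR-155: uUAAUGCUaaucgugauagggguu
The first 3 share 1 seed, and the other 4 each have their own.

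Matches to these seeds were searched on the sense strand of the longest annotated 3′UTR of each gene. A 7mer-m8 match pairs with bases 2 to 8 (AGCACTT for the shared seed), a 7mer-A1 match pairs with bases 2 to 7 and is followed by A (GCACTTA), and an 8mer holds both (AGCACTTA) and was counted once. For the shared seed, 4 of the 10 genes held a match (RBL1, RBL2, CCND1 and CCND2), against 29.9% of the tested genes with a 3′UTR. No such match was found in the 3′UTRs of RB1, CDKN1A, CDKN1B, CDKN1C, CCND3 or CCNE2. RB1 held 1 and CDKN1A held 2 of the shorter 6mer GCACTT (bases 2 to 7 only), which stands in 41.9% of the tested genes with a 3′UTR. The 6mers were searched after no longer match had been found in these genes. The windows below are from GRCh37, run 5′ to 3′ along the transcript, and show matches of the shared seed in RBL2, CCND1, CCND2, RB1 and CDKN1A in capitals.
RBL2, 7mer-m8, chr16:53524895-53524924, plus strand: atatttgtgatAGCACTTtctacaatgtga
CCND1, 7mer-m8, chr11:69467052-69467081, plus strand: ttccatttccaAGCACTTtcagtccaatag
CCND2, 7mer-m8, chr12:4410131-4410160, plus strand: tccattcgaaaAGCACTTtgaaaaattgtt
CCND2, 7mer-A1, chr12:4411483-4411512, plus strand: tgtcgtaatttGCACTTAggtaccaggtgt
RB1, 6mer, chr13:49055078-49055107, plus strand: tatatcccaagtGCACTTtctaatgtttct
CDKN1A, 6mer, chr6:36654033-36654062, plus strand: agtaaacagatgGCACTTtgaaggggcctc
CDKN1A, 6mer, chr6:36654713-36654742, plus strand: ccccagttcattGCACTTtgattagcagcg

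For the other seeds, 2 of the 10 genes held a miR-1 match (CCND1 and CCND2, against 24% of tested genes), 2 a miR-122 match (CDKN1B and RBL1, against 25.4%), 1 a miR-133a match (CDKN1B, against 17.1%) and 3 a miR-155 match (CDKN1B, RB1 and CCND1, against 19.1%). The windows below are from genes called lower with the miRNA in question, with the match in capitals, and for RBL1 only the 8mer of its 2 miR-122 matches is shown.
CCND2, miR-1, 7mer-A1, chr12:4410117-4410146, plus strand: ttgttataaacCATTCCAttcgaaaagcac
CCND2, miR-1, 7mer-m8, chr12:4410327-4410356, plus strand: ccttcctgctgACATTCCcatcacaacatt
CCND2, miR-1, 7mer-m8, chr12:4410341-4410370, plus strand: ttcccatcacaACATTCCtcagacaagcct
RBL1, miR-122, 8mer, chr20:35624880-35624909, minus strand: attgcaccactACACTCCAtcctaggtgag
CCND1, miR-155, 7mer-A1, chr11:69466396-69466425, plus strand: tgtaagaatagGCATTAAcacaaaggaggc
In both CCND1 and CCND2 a miR-1 7mer-A1 match stood just upstream of a 7mer-m8 match of the shared seed, with 6 bases between them in CCND1 and 7 in CCND2. The longest annotated coding sequence was searched in the same way. It held a miR-1 match in 1 gene (RB1, against 18.1% of tested genes). A miR-122 match was found in 3 (CDKN1A, RB1 and RBL1, against 16.7%) and a miR-133a match in 2 (RB1 and CCND2, against 21.1%). A miR-155 match was found in 1 (RBL1, against 10.5%) and a match of the shared seed in 2 (RBL1 and RBL2, against 16.1%). A match is a description of letters and was not taken as a functional site.

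**Figure D1:**
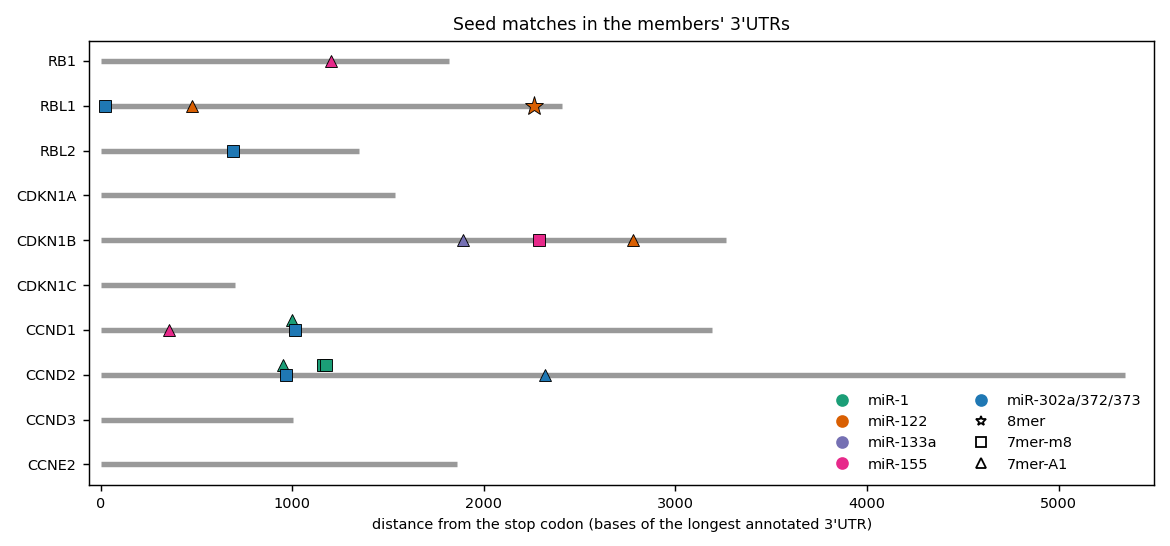
Positions of seed matches in the longest annotated 3′UTR of each gene, as distance from the stop codon in bases (x axis), 1 grey bar per gene. Colours stand for miRNAs, with 1 colour for the shared seed, symbols stand for the match type, and miR-1 matches are raised above the bar. CDKN1A, CDKN1C, CCND3 and CCNE2 carry none, and CCND2, with the longest 3′UTR of the 10 (5344 bases), carries 5.

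The total of exon reads was 20153452 to 21595191 for the libraries of batch 1 and 13047400 to 35040778 for those of batch 2. Of 5 markers of HEK293-type cells in the tables (VIM, KRT8, KRT18, NEFM and ENO2), all reached a median of at least 1 CPM (counts scaled to library size) in both batches, with summed levels between 1300 and 1800 CPM. Summed markers of hepatocytes, muscle, blood and pluripotent cells reached at most 2.46 CPM in any library, and of the fibroblast markers only COL1A1 reached a median of 1 CPM, with summed levels of 8.24 to 26.2 CPM. The mature miRNAs themselves were not measured in these libraries. The library of miR-302a replicate 2 stood apart, since its mean correlation with the other libraries of its own group (Pearson's r = 0.9882 over log2 CPM) was below that with the libraries of the other groups of the batch (0.9888). The own-group r was lower still for miR-372 replicate 2 (0.9862) and miR-155 replicate 2 (0.9881), but above that with other groups (0.9838 and 0.979). Deviations of miR-302a replicate 2 from its group mean had r from -0.086 (miR-133a) to 0.575 (miR-373) with those of the other replicate 2 libraries. The comparisons of miR-302a with the empty vector are given with and without miR-302a replicate 2. For the genes not called with miR-302a, leaving that library out left the log2 fold change at -0.17 for CDKN1B and moved it from -0.08 to -0.17 for CCND1, from -0.09 to 0.03 for CCND2, from 0.02 to -0.0041 for CCND3 and from -0.10 to -0.30 for CCNE2, and none of them passed the test.

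Levels per gene length were compared in the empty vector cells. In batch 2, CDKN1B was the highest of the 10 with 47.5 ± 1.56 CPM per kb of exon (SD, n = 3), followed by CCND1 with 34.1 ± 2.46. RB1 (28.8 ± 0.794), CDKN1A (28.7 ± 1.25), CCND2 (26.5 ± 1.67) and RBL2 (24.6 ± 0.823) came next, and each overlapped its neighbour in this order. CCND3 stood at 14.9 ± 0.653, and CCNE2 (9.2 ± 0.837) and RBL1 (8.65 ± 0.744) overlapped. CDKN1C (p57), an imprinted inhibitor, was by far the lowest with 1.42 ± 0.209 CPM per kb, from 20 to 232 reads per library of the batch. In batch 1 the highest gene was again CDKN1B (44.3 ± 1.41, n = 2) and the lowest CDKN1C (1.44 ± 0.0099). Lengths of the longest annotated coding transcript, in place of the deposited exon lengths, lowered CDKN1B to 29.1 CPM per kb and raised CCND3 to 27.7. CDKN1B was then no longer the highest of the 10. The levels of CDKN1A, RBL2 and CCNE2 also rose by more than their SD. The order of the genes therefore depended on the length used.

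**Figure D2:**
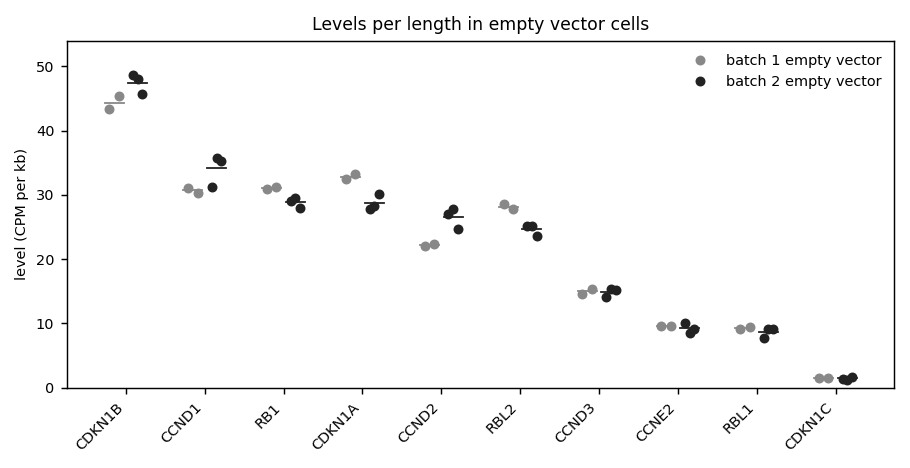
Level of each gene in empty vector cells in CPM per kb of exon (y axis), with 1 point per library and a line at the mean, for batch 1 (grey, 2 libraries) and batch 2 (black, 3 libraries). CDKN1B stands at the top in both batches and CDKN1C at the bottom, with between 1.22 and 1.64 CPM per kb in batch 2.

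Cells expressing a miRNA were compared with empty vector cells of their own batch to ask which of these genes changed in mRNA abundance. A gene was called when its p-value, from edgeR's quasi-likelihood test with Benjamini-Hochberg adjustment over all genes tested in the batch (14348 or 14054), was under 0.05. With miR-1, 4 of the 10 genes were called (2 lower and 2 higher), where 24.5% of all genes tested were called, 13.7% lower and 10.8% higher. With miR-122, 4 were called (3 lower and 1 higher), against 5.92% of all genes, 4.06% lower and 1.86% higher. No gene of the 10 was called with miR-133a, where 5.34% of all genes were called, 3.97% lower and 1.37% higher. At an unadjusted p under 0.05 there were 3 of the 10 with miR-133a (CDKN1A, CCND1 and CCND3), a threshold for which the share of all genes is not given here. DESeq2 and the likelihood ratio test of edgeR each called 1. With miR-155, 2 were called (1 lower and 1 higher), against 7.63% of all genes, 4.81% lower and 2.82% higher. With miR-302a, 5 were called (4 lower and 1 higher), against 7.88%, 4.85% lower and 3.02% higher. Without miR-302a replicate 2 there were 4 (3 lower and 1 higher), against 12.6% of all genes in that fit. With miR-372, 5 were called (4 lower and 1 higher), against 11.4%, 6.56% lower and 4.82% higher. With miR-373, 3 were called, all lower, against 5.13%, 3.3% lower and 1.83% higher. The 3 comparisons of the shared seed, like those of miR-133a and miR-155, share the same 3 empty vector libraries. Every pair of a gene and a miRNA counted, 10 of the 20 pairs with a 3′UTR match were called lower and none higher, and 7 of the 50 pairs without a match were called lower and 6 higher. The shared seed enters this count for each of its 3 miRNAs, and RBL1 and RBL2 were called lower with each of them. The pairs without a match include CDKN1A and RB1 with miR-122, which hold a match in the coding sequence. The same split over all genes is not given here, so these counts were not read as an effect of a match.

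**Figure D3:**
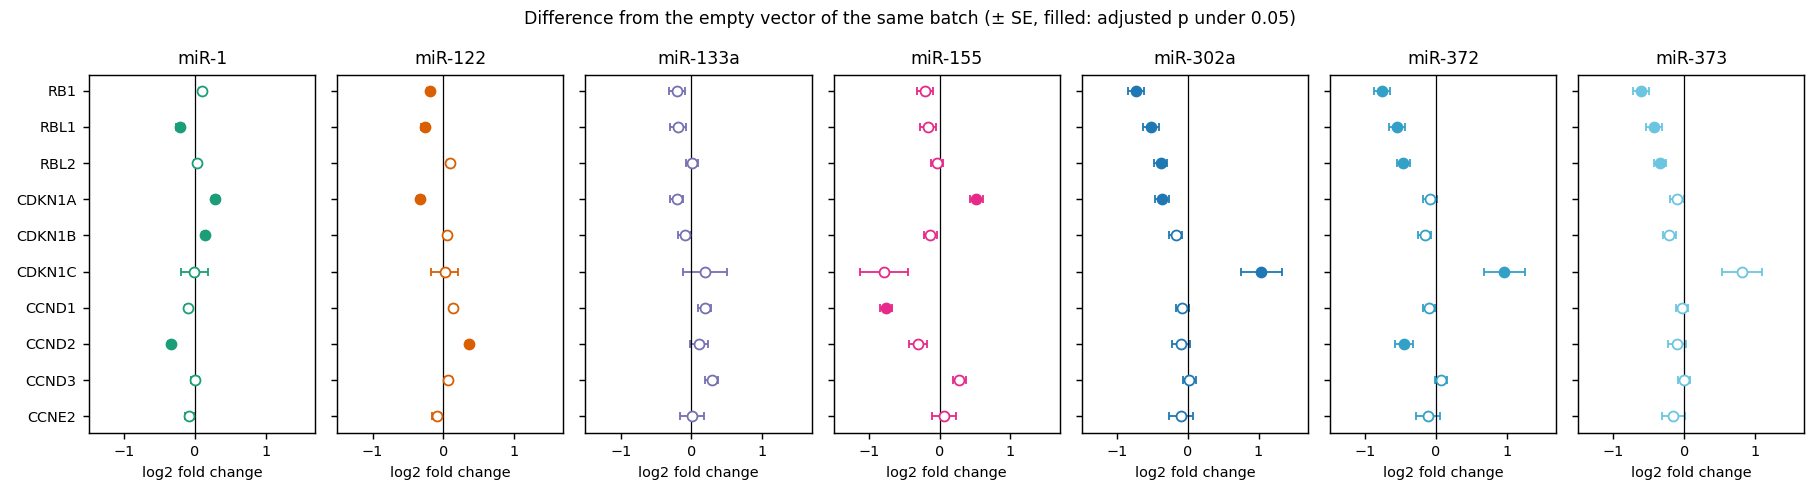
Log2 fold change of each gene against the empty vector of the same batch (x axis), with 1 panel per miRNA and bars for the standard error. Filled points have an adjusted p under 0.05. RB1, RBL1 and RBL2 are filled and below 0 in the panels of the shared seed (miR-302a, miR-372, miR-373), and in the miR-155 panel only CDKN1A (0.52) and CCND1 (-0.76) are filled.

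RB1, which encodes the founding pocket protein, was lower with all 3 miRNAs of the shared seed. Its levels were 141, 143 and 135 CPM in the empty vector libraries of batch 2. They were 70.0, 101 and 80.3 CPM with miR-302a, 74.4, 91.4 and 81.1 with miR-372, and 90.5, 105 and 78.5 with miR-373. Each of these 9 libraries lay below each of the 9 other libraries of the batch, which ranged from 116 to 143 CPM. Of all genes, 9% lay lower with the shared seed without overlapping the empty vector, and 3.89% without overlapping miR-133a and miR-155. The share below all 9 other libraries is not given here. The log2 fold change of RB1 was -0.73 ± 0.12 for miR-302a (SE, adjusted p = 0.000487), -0.76 ± 0.12 for miR-372 (adjusted p = 0.000265) and -0.61 ± 0.11 for miR-373 (adjusted p = 0.00316). RB1 stayed called in all 6 leave-one-out fits of each of these comparisons, and without miR-302a replicate 2, the highest of its group, the value for miR-302a was -0.89. Its 3′UTR and coding sequence hold no 7mer or 8mer match of the shared seed. The coding sequence of RB1 does hold matches of the miR-1, miR-122 and miR-133a seeds. In bulk libraries a lower level per cell and a lower share of cells with the transcript cannot be told apart. With miR-133a (126, 116 and 119 CPM) and miR-155 (116, 126 and 120 CPM), RB1 was below the empty vector in every library, but the differences of -0.21 in both did not pass the test (adjusted p = 0.318 and 0.275). Of all genes, 17.9% with miR-133a and 16.2% with miR-155 likewise lay lower without overlap. In batch 1, RB1 was 150 and 151 CPM in the empty vector, 163 and 158 with miR-1, and 128 and 137 with miR-122. The fall of 12% with miR-122 passed the test (log2 fold change -0.18 ± 0.04, adjusted p = 0.0158), although not without miR-122 replicate 1 and not with DESeq2. The value of 0.10 with miR-1 did not pass (adjusted p = 0.108).

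RBL1, encoding p107, had a log2 fold change below 0 with each of the 7 miRNAs and was called lower with 5. In batch 2 the empty vector libraries held 45.3, 52.98 and 52.6 CPM. RBL1 was at 32.2, 40.3 and 32.5 CPM with miR-302a, at 33.3, 31.1 and 37.9 with miR-372 and at 34.5, 44 and 34.1 with miR-373. Each of these lay below the empty vector, as for 9% of all genes with the shared seed. The log2 fold changes were -0.52 ± 0.12 (adjusted p = 0.00971), -0.56 ± 0.12 (adjusted p = 0.00444) and -0.42 ± 0.12 (adjusted p = 0.0375). The call for miR-372 remained in all 6 leave-one-out fits, that for miR-302a in 4 of 6 (lost without miR-302a replicate 1 or 3, adjusted p = 0.0673 and 0.0558) and that for miR-373 in 2 of 6 (adjusted p up to 0.183). Without miR-302a replicate 2 the value for miR-302a was -0.64 (adjusted p = 0.00283). With miR-133a (43.5, 40.1 and 48.8 CPM) and miR-155 (42.9, 43.7 and 47.9 CPM) the libraries overlapped those of the empty vector, and values of -0.19 and -0.17 did not pass the test. In batch 1, RBL1 was at 53.3 and 54.8 CPM in the empty vector, at 46.7 and 46.4 with miR-1 and at 43.5 and 47.1 with miR-122. It fell with miR-1 (log2 fold change -0.21 ± 0.06, adjusted p = 0.00883), whose seed has no match in its 3′UTR, and with miR-122 (-0.25 ± 0.06, adjusted p = 0.00881), whose 8mer and 7mer-A1 matches are both in it. These 2 calls did not hold when 1 library of miR-1 or miR-122 replicate 1 was left out. With DESeq2 and all libraries kept, neither call held (adjusted p = 0.0775 with miR-1). The pseudogene RPS3AP3 overlaps RBL1 on the same strand.

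RBL2, encoding p130, the pocket protein most abundant in resting cells, was called lower with each miRNA of the shared seed and with none of the other 4. Its levels were 139, 139 and 131 CPM in the empty vector of batch 2. They were 104, 97.3 and 112 CPM with miR-302a, 99.1, 85.4 and 112 with miR-372, and 106, 105 and 112 with miR-373. These again lay below each of the other 9 libraries of the batch (121 to 143 CPM), with the shares of all genes given for RB1. The log2 fold changes were -0.39 ± 0.09 (adjusted p = 0.0108), -0.46 ± 0.09 (adjusted p = 0.00218) and -0.34 ± 0.09 (adjusted p = 0.0285). The calls for miR-302a and miR-372 remained in all 6 leave-one-out fits each, and that for miR-373 in none (values between -0.37 and -0.32, adjusted p of 0.0559 to 0.104). Without miR-302a replicate 2 the value for miR-302a was -0.34 (adjusted p = 0.03). With miR-133a (142, 132.8 and 137 CPM) and miR-155 (135, 121 and 143 CPM), RBL2 overlapped the empty vector, with log2 fold changes of 0.01 and -0.04. In batch 1 it was at 158 and 154 CPM in the empty vector, at 156 and 163 with miR-1 and at 170 and 163 with miR-122, and neither difference passed the test (adjusted p = 0.643 and 0.239).

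**Figure D4:**
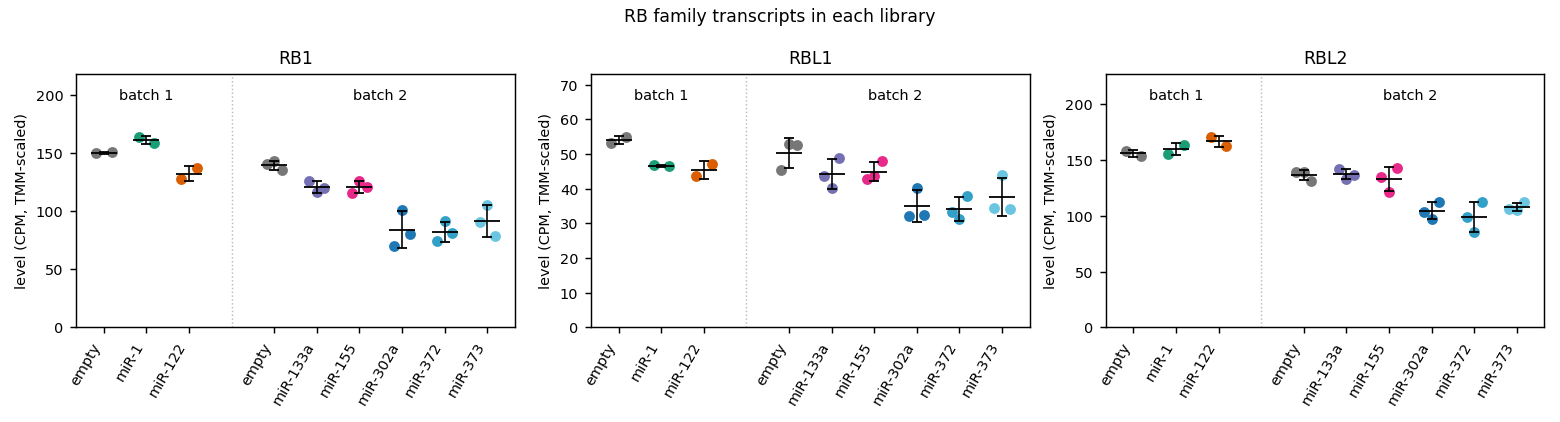
Levels of RB1, RBL1 and RBL2 in each library (TMM-scaled CPM, y axis from 0), by group, with bars for the mean and SD of 2 libraries per group in batch 1 and 3 in batch 2. The 9 libraries of the shared seed lie below the 9 others of batch 2 for RB1 (highest 105 against lowest 116 CPM) and RBL2 (112 against 121 CPM), while for RBL1 the ranges meet (44 against 40.1 CPM). Against the empty vector alone, 9% of all genes lay lower with the shared seed without overlap.

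The mean of the 3 miRNAs of the shared seed was compared with the empty vector and with the other miRNAs of the batch. Against the empty vector, where 15.4% of all genes were called, RB1 (-0.70 ± 0.09, adjusted p = 2.86e-05), RBL1 (-0.50 ± 0.09, adjusted p = 0.00113) and RBL2 (-0.40 ± 0.07, adjusted p = 0.000793) were lower and CDKN1C was higher. The RB family calls remained in all 12 leave-one-out fits. Against the mean of miR-133a and miR-155, where 27.8% of all genes were called, the 3 RB family genes were also lower, by 0.49 for RB1, 0.32 for RBL1 and 0.38 for RBL2 on the log2 scale (adjusted p = 4.89e-05, 0.00324 and 4.79e-05). In all, 7 of the 10 were called in this comparison, the others being CDKN1A (-0.34 ± 0.06, adjusted p = 0.00035) and CCND3 (-0.25 ± 0.06, adjusted p = 0.00228), which were lower, and CCND1 (0.22 ± 0.06, adjusted p = 0.00771) and CDKN1C (1.24 ± 0.20, adjusted p = 9.91e-05), which were higher. These 7 calls remained in all 15 leave-one-out fits. After these values had been seen, miR-155 and miR-133a were also taken one at a time, and RB1 had a log2 fold change of -0.49 against either, RBL1 of -0.33 and -0.31, and RBL2 of -0.36 and -0.40, all called, where 27.1% and 20.5% of all genes were called. RBL1 lost its call against miR-155 without miR-155 replicate 3 (adjusted p = 0.0777), and against miR-133a without its replicate 1 or 3 (adjusted p = 0.0712 and 0.194). CDKN1A was lower against miR-155 (-0.74 to -0.67 over the leave-one-out fits) but was not called against miR-133a (-0.04 to 0.11, called in 0 of 12 fits). CCND1 was higher against miR-155 (0.66 to 0.73) and lower against miR-133a (-0.29 to -0.24).

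CDKN1A, which encodes p21, differed in direction between miRNAs. In batch 1 it stood at 82.2 and 84.4 CPM in the empty vector, rose to 98.2 and 105 CPM with miR-1 and fell to 65.1 and 68.0 CPM with miR-122. These groups did not overlap, but 29.7% of all genes likewise lay higher with miR-1 and 23.6% lower with miR-122 without overlap. Both changes passed the test (log2 fold change 0.29 ± 0.05, adjusted p = 0.000277, and -0.32 ± 0.05, adjusted p = 0.000302). Both calls remained in all 4 leave-one-out fits. In batch 2 the empty vector libraries held 70.3, 71.5 and 76.3 CPM, and CDKN1A rose to 104, 106 and 104 CPM with miR-155 (0.52 ± 0.10, adjusted p = 0.00178, called in all 6 leave-one-out fits). With miR-302a it was lower, at 59.0, 48.6 and 61.7 CPM (-0.37 ± 0.10, adjusted p = 0.0233). This call was lost in 5 of 6 leave-one-out fits, and without miR-302a replicate 2, the lowest library, the value was -0.27 (adjusted p = 0.0723). With miR-372 (70.5, 64.0 and 71.1 CPM) and miR-373 (65.3, 62.2 and 75.3 CPM), which carry the same seed, it overlapped the empty vector, with log2 fold changes of -0.08 (95% interval -0.28 to 0.12) and -0.10 (-0.30 to 0.10). miR-133a gave 56.5, 62.0 and 69.9 CPM, below each control as for 17.9% of all genes, but the value of -0.21 did not pass the test (adjusted p = 0.222). No 7mer or 8mer match of any of the 7 seeds was found in the 3′UTR of CDKN1A, but its coding sequence held 1 miR-122 match.

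CDKN1B, which encodes p27, moved little. It rose by 10% with miR-1, from 115 and 120 CPM to 131 and 128 CPM (0.14 ± 0.04, adjusted p = 0.0274). That call remained in only 1 of 4 leave-one-out fits and was lost with DESeq2 (adjusted p = 0.105) and with the replicate number as a block (adjusted p = 0.0573). In batch 2 it stood at 129, 128 and 121.5 CPM in the empty vector and between 95.3 and 125 CPM in the 9 libraries of the shared seed, and its log2 fold changes over the 5 miRNAs of that batch, between -0.21 and -0.10, did not pass the test (lowest adjusted p = 0.226). With miR-155, whose 7mer-m8 match is in its 3′UTR, the value was -0.13 (95% interval -0.32 to 0.06).

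CDKN1C, the low-abundance inhibitor p57, was called higher with miR-302a and miR-372. The empty vector libraries of batch 2 held 38, 38 and 48 reads, or 2.85, 2.50 and 3.36 CPM. Its levels were 7.58, 3.302 and 7.25 CPM with miR-302a (108, 59 and 95 reads), 5.96, 4.93 and 6.04 with miR-372, and 4.09, 4.27 and 6.56 with miR-373. miR-302a replicate 2 overlapped the empty vector and the other 8 libraries lay above it. With miR-372 and miR-373, 14.2% and 12.7% of all genes likewise lay higher without overlap. The log2 fold change of CDKN1C was 1.04 ± 0.29 for miR-302a (adjusted p = 0.0321), 0.97 ± 0.29 for miR-372 (adjusted p = 0.0346) and 0.82 ± 0.29 for miR-373 (adjusted p = 0.114). Without miR-302a replicate 2 the value for miR-302a was 1.35 (adjusted p = 0.00163), and each of the 5 other leave-one-out fits lost that call, as did 5 of 6 for miR-372. For the mean of the 3 miRNAs the value was 0.94 ± 0.25 (adjusted p = 0.0138, called in 10 of 12 leave-one-out fits). With miR-155 the 3 libraries (1.30, 1.53 and 2.20 CPM, 20 to 31 reads) lay below the empty vector, as for 16.2% of all genes. The value of -0.79 ± 0.34 did not pass the test (adjusted p = 0.158). In batch 1 CDKN1C was between 2.62 and 3.40 CPM in all 6 libraries.

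CCND1, which encodes cyclin D1, fell with miR-155, from 138, 158 and 155.4 CPM in the empty vector to 86.3, 86.6 and 93.3 CPM. No library overlapped, as for 16.2% of all genes that lay lower with miR-155. The log2 fold change of -0.76 ± 0.09, a fall of 41%, had an adjusted p of 1.73e-05 and was called in all 6 leave-one-out fits. A miR-155 7mer-A1 match lies in its 3′UTR. With miR-133a it was at 168, 175 and 170 CPM, above each control, as for 17.5% of all genes. It did not pass the test (0.19, adjusted p = 0.236). With the shared seed, whose 7mer-m8 match it carries, levels overlapped the empty vector: 136, 160 and 131 CPM with miR-302a, 134, 150 and 136 with miR-372, and 139, 165 and 137 with miR-373. The log2 fold change of the mean of the 3 miRNAs was -0.07, with a 95% interval of -0.22 to 0.08. In batch 1, CCND1 was at 137 and 134 CPM in the empty vector, at 123 and 129 with miR-1 (-0.10, adjusted p = 0.0975) and at 149 and 148 with miR-122 (0.14, adjusted p = 0.0718).

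CCND2, which encodes cyclin D2, fell with miR-1 from 148 and 150 CPM to 117 and 118 CPM and rose with miR-122 to 188 and 193 CPM. The log2 fold changes were -0.34 ± 0.04 (adjusted p = 9.7e-06) and 0.36 ± 0.04 (adjusted p = 6.33e-06), and both remained in all 4 leave-one-out fits. Its 3 miR-1 matches are those printed above, and no miR-122 match was found in its 3′UTR. In batch 2 the empty vector held 181, 186 and 165 CPM. CCND2 was lower with miR-372, at 131, 108 and 147 CPM (-0.46 ± 0.13, adjusted p = 0.0271), a call that remained in 2 of 6 leave-one-out fits. With miR-302a (178, 137 and 184 CPM) and miR-373 (161, 149 and 185 CPM), which have the same 2 matches in this gene, the libraries overlapped the empty vector, at -0.09 (95% interval -0.36 to 0.17) and -0.10 (-0.37 to 0.16). With miR-155 it was at 160, 120 and 152 CPM, below each control, as for 16.2% of all genes. Its value of -0.30 ± 0.13 did not pass the test (adjusted p = 0.158), although it did without a filter on low counts (adjusted p = 0.0466). One other coding gene overlaps CCND2 on the same strand.

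CCND3, encoding cyclin D3, was called in no comparison with an empty vector. It was at 63.0, 68.1 and 67.9 CPM in the empty vector of batch 2, at 74.6, 86.4 and 81.4 with miR-133a and at 77.4, 86.0 and 78.1 with miR-155. Both groups lay above the controls, as for 17.5% of all genes with miR-133a and 14.5% with miR-155. The log2 fold changes of CCND3 were 0.28 ± 0.09 each (adjusted p = 0.0679 and 0.0603). Both differences passed the test with DESeq2 (adjusted p = 0.0415 and 0.0371), with the likelihood ratio test of edgeR (adjusted p = 0.0427 and 0.0399) and with the replicate number as a block (adjusted p = 0.0195 and 0.0185). In the 9 libraries of the shared seed CCND3 ranged from 61.7 to 80.1 CPM, overlapping the controls. CCNE2, encoding cyclin E2, was called in no comparison either. It stood at 36.7, 30.6 and 33.1 CPM in the empty vector of batch 2 and between 25.1 and 42.5 CPM in the other libraries of that batch, and its log2 fold changes over the 7 miRNAs lay between -0.15 and 0.07.

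**Figure D5:**
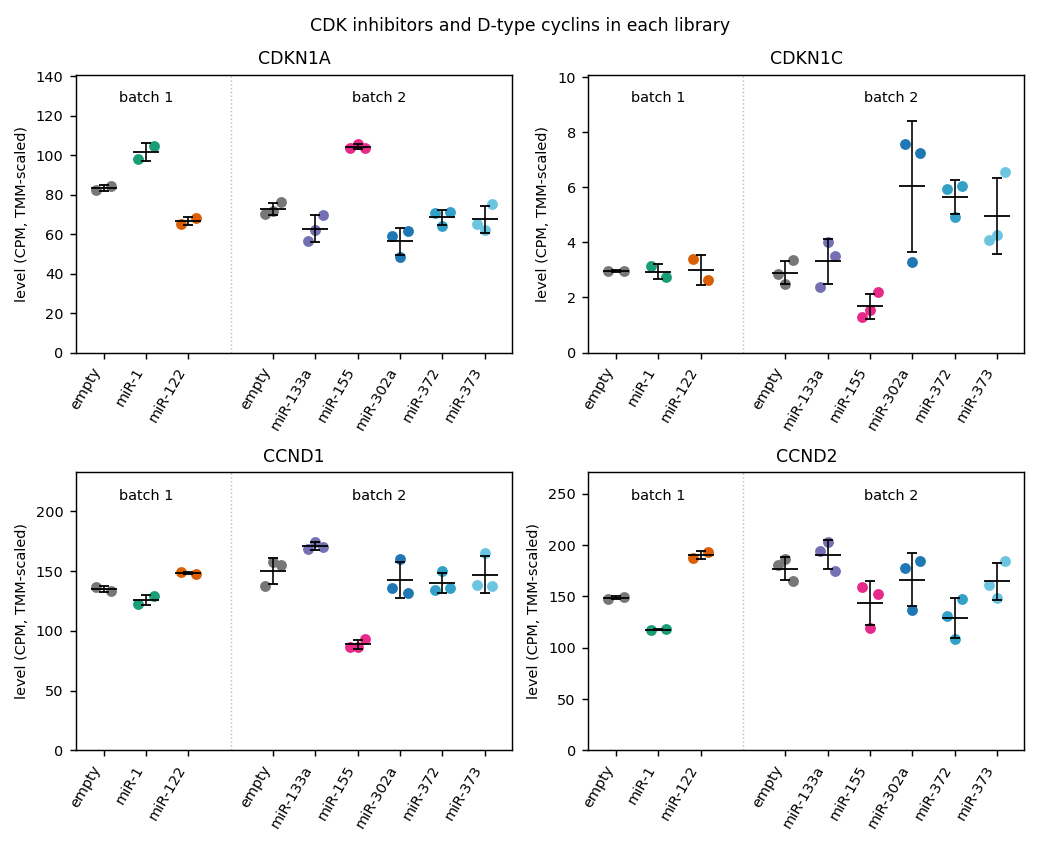
Levels of CDKN1A, CDKN1C, CCND1 and CCND2 in each library (TMM-scaled CPM, y axes from 0), by group, with bars for the mean and SD of 2 libraries per group in batch 1 and 3 in batch 2. The miR-155 libraries stand above all others of batch 2 for CDKN1A (104 to 106 CPM) and below all others for CCND1 (86.3 to 93.3 CPM), and 1 miR-302a library lies low for CDKN1C (3.302 CPM).

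The miRNAs of batch 1, whose seeds differ at a single base, were compared directly. Between miR-1 and miR-122, 4 of the 10 genes were called, where 31.2% of all genes were. CDKN1A (0.61 ± 0.05, adjusted p = 1.81e-08) and RB1 (0.28 ± 0.04, adjusted p = 7.74e-05) were higher with miR-1, and CCND1 (-0.24 ± 0.04, adjusted p = 0.000351) and CCND2 (-0.69 ± 0.04, adjusted p = 1.85e-10) were lower. All 4 calls remained in every leave-one-out fit of the batch. RBL1, which fell with both miRNAs, did not differ beyond its error between them (0.04, 95% interval -0.08 to 0.16).

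To ask whether miRNAs with the same seed differ in these genes, the 3 pairs among them were tested. None of the 10 genes was called in any pair by edgeR, nor was any of the 14054 genes tested (0% in each pair), and DESeq2 and the likelihood ratio test of edgeR also called none of the 10. At an unadjusted p under 0.05, miR-302a differed from miR-372 in 2 of the 10 and from miR-373 in 1, and the remaining pair differed in 1. The share of all genes at that threshold is not given here, so these counts were not read as a difference between the miRNAs. CDKN1A was lower with miR-302a than with miR-372 (-0.28, 95% interval -0.49 to -0.08) and miR-373 (-0.27, -0.47 to -0.07). Its libraries did not overlap, as for 1.45% and 2.78% of all genes that lay lower with miR-302a. Over leave-one-out fits these values ranged from -0.36 to -0.19 and from -0.34 to -0.17, and miR-302a replicate 2 held the lowest level (48.6 CPM). The unadjusted p-values of the quasi-likelihood test across all genes were 0.00815 and 0.0117. CCND2 was lower with miR-372 than with miR-302a and miR-373, by 0.36 and 0.35 on the log2 scale, at unadjusted p-values of 0.0107 and 0.0124 in the fit across all genes. After adjustment all of these were 1. For RB1 the intervals of the 3 differences reached from -0.39 to 0.27 in all, for RBL1 from -0.37 to 0.28 and for RBL2 from -0.30 to 0.26.

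miR-155 and miR-133a, which differ in seed from each other and from the rest, were compared after their values against the empty vector had been seen. CDKN1A was higher (0.73 ± 0.10, adjusted p = 2.39e-05), and CCND1 (-0.95 ± 0.09, adjusted p = 4.16e-07), CCND2 (-0.41 ± 0.13, adjusted p = 0.0343) and CDKN1C (-0.99 ± 0.33, adjusted p = 0.0486) were lower with miR-155, where 16.7% of all genes were called. CDKN1A and CCND1 remained called in all 6 leave-one-out fits, CCND2 in 2 and CDKN1C in 2. Against the mean of the shared seed, miR-155 libraries were higher in CDKN1A (log2 fold change of the shared seed against miR-155 -0.71 ± 0.07, adjusted p = 1.23e-06) and lower in CCND1 (0.69 ± 0.08, adjusted p = 1.61e-06) and CDKN1C (1.73 ± 0.27, adjusted p = 0.000102). Against miR-133a, the shared seed was lower in all 3 D-type cyclins, with log2 fold changes of -0.26 for CCND1, -0.32 for CCND2 and -0.26 for CCND3 (adjusted p = 0.0131, 0.0302 and 0.0142). CCND3 was also lower with the shared seed than with miR-155 (-0.25 ± 0.07, adjusted p = 0.0129), but not without miR-155 replicate 2 (-0.20, adjusted p = 0.0864). Each of the 3 calls against miR-133a was lost in some fits that left out a miR-133a library, where 3 or 4 of the 10 genes were called in place of 7.

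Among 40 other genes of the G1 to S machinery, all tested in both batches, the share called was 35% with miR-1 (24.5% of all genes), 2.5% with miR-122 (5.92%), 15% with miR-133a (5.34%), 20% with miR-155 (7.63%), 15% with miR-302a (7.88%), 17.5% with miR-372 (11.4%) and 12.5% with miR-373 (5.13%). miR-1 had 3 lower and 11 higher, and E2F5, a repressive partner of pocket proteins, was the lowest, falling from 24.02 and 24.9 CPM to 7.51 and 7.48 CPM (-1.70 ± 0.09, adjusted p = 4.79e-11). CKS1B, a subunit that binds cyclin-dependent kinases, was the highest of the called genes (16.3 and 16.3 to 19.7 and 21.5 CPM, 0.34 ± 0.08, adjusted p = 0.00532). miR-122 had none lower and 1 higher, the activator E2F1 (0.16 ± 0.05, adjusted p = 0.0444). miR-133a had 3 lower and 3 higher, with E2F6 the highest (0.38 ± 0.11, adjusted p = 0.0424).

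miR-155 had 4 of the 40 lower and 4 higher. CDK6, a kinase partner of cyclin D, fell from 99.8, 115 and 99.0 CPM to 73.9, 67.5 and 74.3 CPM (-0.54 ± 0.10, adjusted p = 0.00148), and CCNA1, the germ line cyclin A, rose from 3.45, 2.44 and 3.08 CPM to 9.26, 6.12 and 5.10 CPM (1.20 ± 0.23, adjusted p = 0.00249). The shared seed gave 6 lower and none higher with miR-302a, 6 and 1 with miR-372, and 5 and none with miR-373. LIN52, a subunit of the complex that joins RBL1 or RBL2 to E2F4 at repressed promoters, was the lowest called gene in all 3. It fell from 17.7, 15.4 and 15.3 CPM in the empty vector to between 9.45 and 11.1 CPM in the 9 libraries, with log2 fold changes of -0.72 ± 0.11, -0.67 ± 0.11 and -0.64 ± 0.11 (adjusted p = 0.000332, 0.000469 and 0.0011). LIN52 was also the lowest called gene with miR-133a (10.3, 11.8 and 12.6 CPM, -0.48 ± 0.11, adjusted p = 0.0107). Without miR-302a replicate 2, miR-302a gave 6 lower and 2 higher, where 12.6% of all genes were called, and LIN52 was at -0.76 (adjusted p = 0.000734). CCNE1, encoding cyclin E1, was the only one of the 40 called higher with miR-372 (80.3, 97.3 and 81.5 CPM against 65.0, 65.2 and 71.5, 0.36 ± 0.10, adjusted p = 0.0235). Over these 40 genes the median log2 fold change lay between -0.01 and 0.10 over the 7 miRNAs, where that of all genes lay between 0 and 0.01.

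Of 19 genes of DNA replication and mitosis, used as a readout of proliferation, 1 was lower and 7 higher with miR-1, none was called with miR-122, miR-155 or miR-373, and 1, 1 and 3 were higher with miR-133a, miR-302a and miR-372, with none lower. These were 42.1% of the 19 with miR-1, where 24.5% of all genes were called, and at most 15.8% with the others, where 5.13% to 11.4% were. Without miR-302a replicate 2, miR-302a gave 3 lower and 2 higher, where 12.6% of all genes were called. Of 15 other genes of the p53 response, given beside CDKN1A, 3 were lower and 1 higher with miR-1, 2 lower and 1 higher with miR-122, 2 lower and none higher with miR-133a, and none lower and 3 higher with miR-155. With each miRNA of the shared seed 1 of the 15 was lower, and 3, 3 and 2 were higher. For miR-302a these counts were the same without its replicate 2, where 12.6% of all genes were called. The share of the 15 called was 26.7% with miR-1, close to the 24.5% of all genes, and between 13.3% and 26.7% with the other miRNAs, against 5.13% to 11.4% of all genes. Their median log2 fold change with miR-155, where CDKN1A rose, was 0.18 against 0.01 for all genes, and with miR-1, where CDKN1A also rose, it was -0.06 against 0.

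The genes most like the repeatedly called members were found by Pearson's r of log2 CPM, centred on the mean of each batch, over the 24 libraries and about 10525 genes. These libraries share groups, so the values describe group patterns as much as libraries. The closest gene was ESCO2 for RB1 (r = 0.949), ZNF317 for RBL1 (0.908), SELENBP1 for CDKN1A (0.879), DUSP9 for CDKN1C (0.964) and SNTB1 for CCND2 (0.847). Between members, the highest r was 0.861 for RB1 with RBL1, and the lowest was -0.816 for CDKN1A with CCND1.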

How the data were processed

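RNA-seq libraries were made from 1000 ng of RNA with a strand-specific kit. The authors clipped adapters, aligned the reads to hg19 with TopHat2 (2.1.1) and used featureCounts to count exon reads on the transcribed strand (mapping quality of at least 50), and deposited raw counts per gene, 1 table a batch. They also deposited tables of their own fold changes, p-values and q-values, which were not used. Symbols were found for 28543 of 29794 genes. Every column of a sample was used.

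edgeR 4.0.16 (R 4.3.3) was run once per batch on all of its groups: filterByExpr with a minimum count of 10, TMM scaling, and a quasi-likelihood fit on group. Benjamini-Hochberg adjustment covered all genes tested, and the threshold was 0.05. The prior count was 0.125. Standard errors were obtained by dividing the size of the log2 fold change by the square root of F, and 95% intervals used the t quantile. CPM are TMM-scaled, and values after ± in CPM are SD. Any 2 replicates of a group differed by more than sampling noise (chi-square over genes). The fit was tested on simulated counts. GENCODE v44 lifted to GRCh37, the build of hg19, gave 3′UTRs and coding sequences.

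The genes and lists were chosen with earlier results of these data known. Named are all 10 genes, the called gene of the list of 40 with the lowest and the highest log2 fold change per comparison with an empty vector, and the closest gene by r for each gene called in at least 2 of these. Alternatives were DESeq2 (1.42.0) or its size factors, the likelihood ratio test, no filter, a filter of 1 CPM in all libraries, separate fits of the groups in each comparison, a block for the replicate number, and leave-one-out fits. Same-numbered libraries deviated together in every pair (r over 0.1) for miR-372 with miR-302a, for miR-133a with miR-155 and miR-372, and for miR-155 with miR-302a and miR-372. In the comparisons between miRNAs the block changed no call among the 10 genes. Not every window of a seed match and not every closest gene is reported here.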

Additional observations from a re-analysis of the deposited data

Results flagged for a closer look

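CDKN1A and CCND2 were each called in opposite directions with miR-1 and miR-122 against the same empty vector libraries, and the direct comparison of both miRNAs also passed the test. The log2 fold change of miR-1 against miR-122 was 0.61 for CDKN1A (means of 102 and 66.5 CPM) and -0.69 for CCND2 (means of 118 and 191 CPM). For both genes all libraries of 1 group lay on the same side of all libraries of the other. Of all genes tested, 33.6% lay higher and 33.7% lower with miR-1 in this way. CCND1 in the same comparison followed CCND2 (-0.24) and RB1 followed CDKN1A (0.28). Both miRNAs were set against the same 2 empty vector libraries.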

How the results depend on the processing

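Of 2289 values of the 10 genes under an alternative, 2210 kept their side of the threshold, 67 lost their call and 12 gained one. None that was called changed sign, and 91 uncalled values, all of a size of 0.11 or less on the log2 scale in the main analysis, did. The number of the 10 genes called fell from 4 to 2 with miR-1 and from 4 to 2 with miR-122 under DESeq2, and with miR-133a rose from 0 to 1 under DESeq2, the likelihood ratio test and the replicate block, and to 2 in the fit of only the groups compared. Leaving out each library in turn gave 2 to 4 calls with miR-1, 2 to 4 with miR-122, 2 to 4 with miR-302a, 3 to 4 with miR-372, 1 to 2 with miR-373, 3 to 7 for the shared seed against miR-133a and 2 to 4 for miR-155 against miR-133a. Over all 14054 genes tested in batch 2, these fits called 482 to 1776 with miR-302a, 857 to 1833 with miR-372 and 348 to 498 with miR-373. They called 1812 to 3358 for the shared seed against miR-133a and 1586 to 2039 for miR-155 against miR-133a. The cause of these changes was not tested. Pairs of a gene and a miRNA with a seed match numbered 20 of 70 in the longest 3′UTR and in all annotated 3′UTRs, and 34 with 6mers.

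Over all genes, DESeq2 called 1785, 410 and 2542 genes for miR-1, miR-122 and miR-1 against miR-122, in place of 3520, 849 and 4481. Fitting only the groups compared called 2303 genes with miR-133a (750 in the main analysis) and 807 with miR-372 (1599). For the same-seed pairs the likelihood ratio test called 1, 3 and 1 genes, DESeq2 3 and 1 in the last 2 pairs, and no filter 1 between miR-302a and miR-373, in place of none.

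Replicate numbers did not pair the libraries of a miRNA with those of its empty vector. With the replicate block, CDKN1B lost its call with miR-1 (0.14, adjusted p = 0.0573), CCND3 was called with miR-133a and miR-155 (0.28 in both), and CDKN1A was called lower for the mean of the shared seed (-0.19, adjusted p = 0.0445). The block changed no other call of the 10 genes. It raised the number of all genes called to 1308 with miR-133a, 1663 with miR-155 and 1122 with miR-373, in place of 750, 1073 and 721. Depth limits CDKN1C most, since it had 20 to 232 reads per library.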
